A study of Arabidopsis thaliana with 121 samples.

Results

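Transcript levels of 5 silencing factors, MORC1 (AT4G36290), MORC6 (AT1G19100), MORC4 (AT5G50780), MORC7 (AT4G24970) and MOM1 (AT1G08060), were followed across Arabidopsis thaliana mutants of the chromatin remodeller DDM1 and of both CDCA7 genes. The 5 genes were taken by name as factors that silence transposons beside DNA methylation. They are 5 of the 68157 loci counted in 39 libraries of pooled leaves and of the 68159 loci counted in 82 libraries of single plants, where each locus is the sum of its annotated transcripts on the sense strand. All 5 passed the filter on low counts (at least 10 reads in at least 3 libraries) in both sets.

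The pooled set held RNA of 31-day-old rosette leaves, with 2 leaves from each of 3 plants per library. It had 9 genotypes homozygous for ddm1-2: ddm1 in its first homozygous generation (G1, labelled F2_ddm1, n = 2), in G2 (n = 2) and in G5 (n = 3), ddm1 cdca7α-1 (G2, n = 2), ddm1 cdca7α-2 (G1, n = 2), and 4 lines in G6, called ddm1 cdca7β-1 (n = 3), ddm1 cdca7β-2 (n = 3), ddm1 cdca7αβ-1 (n = 3) and ddm1 cdca7αβ-2 (n = 2). These 4 lines were edited with CRISPR-Cas9 in ddm1 plants and carry mutations of their own, other than those of the same number below. The other 7 genotypes carried wild-type DDM1: cdca7α-1 (n = 3), cdca7α-2 (n = 2), cdca7β-1 (n = 3), cdca7β-2 (n = 2), cdca7αβ-1 (n = 2), cdca7αβ-2 (n = 2) and Col-0 wild type (WT, n = 3). The cdca7α-1 allele is a T-DNA in the CDCA7α promoter that raises its expression, and cdca7α-2 is a T-DNA that breaks the coding sequence. The cdca7β alleles were edited. In cdca7αβ-1 and cdca7αβ-3 the cdca7α-2 insertion is joined to an edited CDCA7β, and in cdca7αβ-2 both genes were edited with CRISPR-Cas9. All lines are in the Col-0 background. In the single-plant set, each library came from 1 leaf of a 28-day-old plant. There, cdca7αβ-3 plants carried CDCA7α (n = 5), its variants dCter (n = 7), R35A_N42L (n = 6), C183S_C209S (n = 7) or dNter (n = 6), or the coding sequence behind the promoter of another natural accession, intact (p6966, n = 5) or without 1 of its indels (p6966_d4nt, n = 2; p6966_d26nt, n = 7), and 2 sister plants were without the transgene (no_YFP). The cdca7α-2 plants carried CDCA7α (n = 3), p6966 (n = 5), p6966_d4nt (n = 4) or p6966_d26nt (n = 5). Untransformed cdca7αβ-3 (n = 4), cdca7α-2 (n = 3), cdca7β-1 (n = 6) and WT (n = 5) plants completed the set. Transgenic plants were primary transformants, so each was a separate insertion event.

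MORC proteins are ATPases of the GHKL family that compact chromatin, and in plants they keep transposons and other methylated loci silent without being needed for most of the methylation itself. MORC6 works in dimers with MORC1 or its close relative MORC2, and MORC1 was first known for a role in resistance to viruses and other pathogens. MORC4 and MORC7 act redundantly, at silenced loci and at genes of the defence response. MOM1 is a plant-specific protein with part of a remodeller-like helicase domain that silences repeats together with the SUMO ligase-like proteins PIAL1 and PIAL2, again with little change in methylation. DDM1 opens heterochromatin to the methyltransferases, and CDCA7 proteins are partners of remodellers of the DDM1 family.

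Library totals were 2087927 to 4439892 reads in pooled leaves and 1194658 to 5206149 reads in single plants. DDM1 itself had 0 to 5 reads per library in the pooled set, so its transcript did not check the ddm1 label, whereas annotated transposons held 1.63% to 4.69% of reads in the 22 ddm1 libraries, against 0.240% to 1.21% in the 17 DDM1 libraries. CDCA7β had 0 to 2 reads in every pooled library. CDCA7α had 41 to 66 reads in cdca7α-1 and 0 to 3 reads in cdca7α-2, against 0 to 5 reads in WT. The 3 leaf markers RBCS1A, CAB1 and RCA summed to 5812 CPM or more in every pooled library, where CPM are read counts scaled to a common library total with TMM, and 2 of 3 flower markers had a median of 0 reads. Leaf markers were also higher with ddm1, at a median sum of 34824 CPM in ddm1 libraries, against 15115 CPM in DDM1 libraries, and 5 markers of dividing cells summed to a median of 11.9 CPM in ddm1 libraries, against 2.02 CPM in DDM1 libraries. In whole leaves, fewer cells of a type and less RNA per cell cannot be told apart.

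Reads of the 5 genes were few. In pooled leaves the median count per library was 14 for MORC1, 15 for MORC6, 30 for MORC4, 14 for MORC7 and 35 for MOM1. In single plants it was 18.5 for MORC1, 9 for MORC6, 22 for MORC4, 4 for MORC7 and 44.5 for MOM1. Only MORC7 was ever without a read, in 7 of 82 single-plant libraries, where a count of 0 allows up to 3 reads, or 0.804 to 2.72 CPM. MORC1 and MORC6 were counted almost wholly on 1 transcript each (99.8% and 99.3% of their reads in pooled leaves), while the leading transcript held 93.6% of MORC4, 78.7% of MOM1 and 77.7% of MORC7 reads. None of the 5 genes overlaps another gene in the RefSeq annotation (TAIR10.1). MORC1, on chromosome 4, lies beside MORC2 (AT4G36280) on the same strand, and reads from sequence that this pair shares may be split between them.

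Levels below are in CPM, and changes are log2 fold changes with their standard errors (SE). A gene was called changed at a Benjamini-Hochberg adjusted p of 0.1 or less with a log2 change of at least 1 in either direction (edgeR quasi-likelihood test over all loci that passed the filter). The p-values measure the spread between libraries of the same genotype, which come from separate plants or pools of plants. Of 160 values, 5 genes in 32 comparisons, 1 was called, and 5 had an unadjusted p below 0.05. DESeq2 called the same gene in the same comparison and no other. Each of the 5 unadjusted p-values was set beside all loci of its comparison. The share with a p as small was 15.3% for MORC7 in ddm1 G2 and 19.9% for MORC4 over all ddm1 genotypes. It was 3.34% for MORC4 in ddm1 cdca7β-1, 4.58% for MOM1 in cdca7αβ-3 and 3.31% for MORC6 with p6966 in cdca7α-2. Groups of 2 or 3 libraries can separate by chance. The share of all loci that did so was not counted, so non-overlap is a description only. Over the 32 comparisons, all tested libraries lay above the reference in 1 for MORC1, 2 for MORC4, 1 for MORC6, 3 for MORC7 and 2 for MOM1. They all lay below it in 0, 5, 1, 2 and 1 comparisons.

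**Figure D1:**
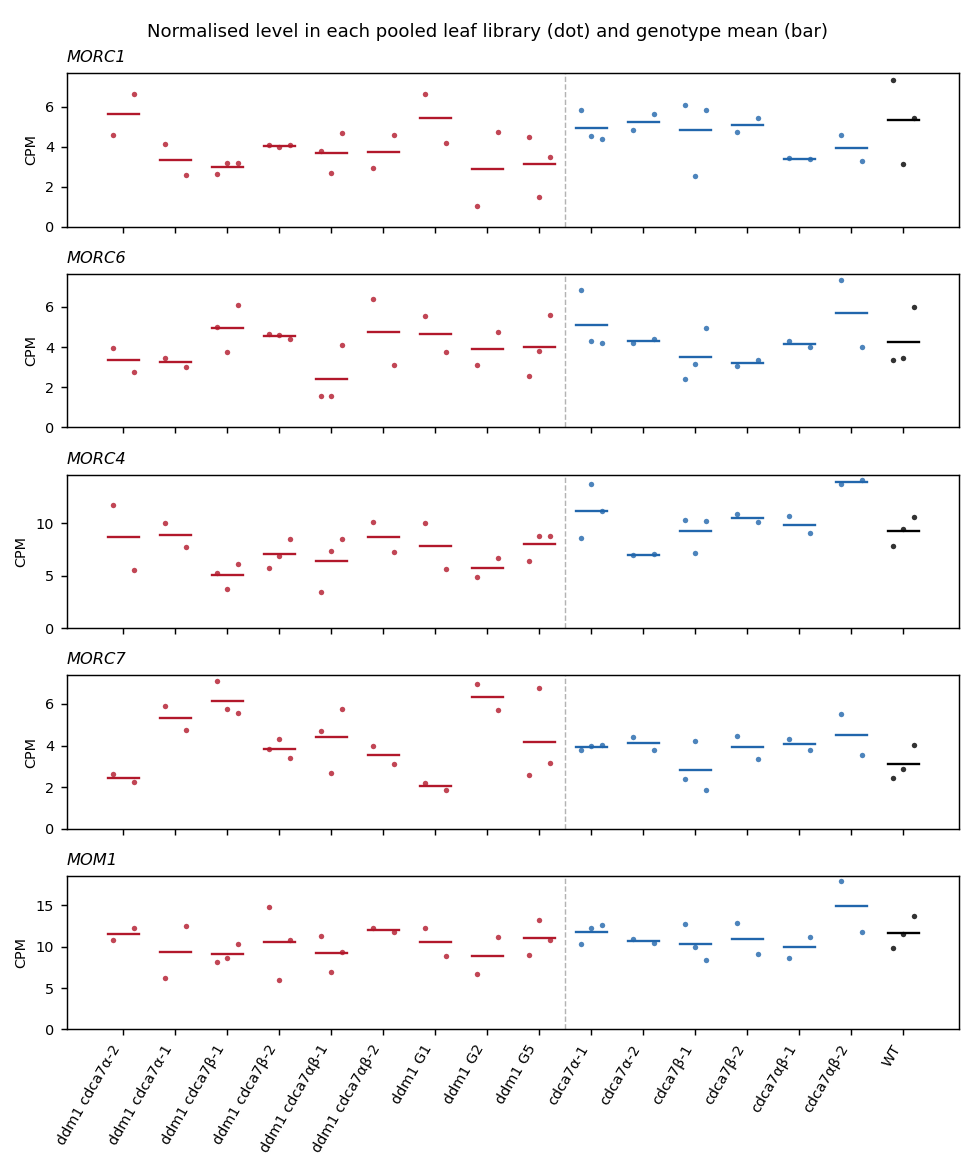
Level (CPM) of each gene in the 39 pooled leaf libraries, with dots for libraries and bars for genotype means; ddm1 genotypes are red, cdca7 mutants with DDM1 blue and WT black. MORC4 dots of 11 of the 22 ddm1 libraries lie below every DDM1 library, and the MORC7 dots of ddm1 G2 lie above all 3 WT dots.

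Over the ddm1 genotypes as a whole, MORC4 was the 1 gene whose lower level passed the adjusted p limit. Its level ran between 3.46 and 11.8 CPM in the 22 ddm1 libraries, with a median of 7.05, against 6.95 to 14.1 CPM in the 17 DDM1 libraries, with a median of 10.2. The ranges overlapped, but 21 of 22 ddm1 libraries were below the DDM1 median, 11 were below every DDM1 library, and all 9 ddm1 genotype means were below the WT mean. Of the 9 means, 3 were below the lowest DDM1 genotype mean. MORC1 and MOM1 had 4 such genotypes each, and 19 of 22 ddm1 libraries were below the DDM1 median for MORC1 and 14 of 22 for MOM1. The mean of the 9 ddm1 genotypes against the mean of the 7 DDM1 genotypes gave a MORC4 log2 change of -0.45 (SE 0.12; edgeR, Benjamini-Hochberg adjusted p = 0.00386). This SE and p rest on the spread of libraries within genotypes and leave out the spread between lines. MORC4 means ran from 5.05 to 8.89 CPM over ddm1 genotypes and from 7.02 to 14.0 CPM over DDM1 genotypes. The MORC4 change no longer passed the adjusted p limit when the largest transcript replaced the sum of transcripts (log2 change -0.55, edgeR Benjamini-Hochberg adjusted p = 0.309).

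This contrast moved many loci. At the limits on fold and adjusted p it called 11.6% of 17943 loci and none of the 5 genes. At the adjusted p limit alone, at any fold, it called 42.6% of loci, 22.0% as lower, and 1 of the 5 genes, MORC4, so the share of the 5 genes was not above that of all loci. In the same fit MORC1 had a log2 change of -0.29 (SE 0.17; edgeR, Benjamini-Hochberg adjusted p = 0.196). MOM1 had -0.16 (SE 0.12), MORC6 -0.11 (SE 0.16) and MORC7 0.10 (SE 0.14), and none passed. The median over the 5 genes was -0.16, beside -0.04 over all loci tested. Sums of leaf and of dividing-cell markers were higher in the same libraries, but the leaf marker RCA alone did not pass (log2 change 0.36, SE 0.20; edgeR, Benjamini-Hochberg adjusted p = 0.175). The senescence marker SAG13 was lower (log2 change -0.87, SE 0.29; edgeR, Benjamini-Hochberg adjusted p = 0.0207). The part of these markers in the MORC4 value was not tested.

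MORC4 in each generation of ddm1 alone differed less clearly from WT. It measured 9.98 and 5.62 CPM in ddm1 G1, 4.89 and 6.67 CPM in ddm1 G2, and 6.41, 8.81 and 8.75 CPM in ddm1 G5, against 7.82, 9.47 and 10.6 CPM in WT. Both G2 libraries were below all 3 WT libraries, while G1 and G5 overlapped WT. The log2 changes against the shared WT libraries were -0.23 (SE 0.34) in G1, -0.69 (SE 0.34) in G2 and -0.21 (SE 0.30) in G5, and the lowest of their adjusted p-values was 0.193 (edgeR, Benjamini-Hochberg).

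MORC7, the partner of MORC4 in redundancy, was the only 1 of the 5 genes called, in ddm1 G2 against WT. It had 27 and 18 reads, or 6.95 and 5.71 CPM, in ddm1 G2 libraries, against 11, 10 and 14 reads, or 2.46, 2.87 and 4.01 CPM, in WT libraries. The groups did not overlap, and the log2 change was 1.03 (SE 0.36; edgeR, Benjamini-Hochberg adjusted p = 0.0549). In this comparison 14.6% of loci were called, and 1 of the 5 genes. The call was narrow: without G2 replicate 1 the log2 change was 0.88 (edgeR, Benjamini-Hochberg adjusted p = 0.238), without WT replicate 1 it was 0.87 (adjusted p = 0.168), without WT replicate 2 it was 0.98 (adjusted p = 0.146), and without G2 replicate 3 it was 1.16 (adjusted p = 0.120).

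In the other generations MORC7 was not called. It measured 2.22 and 1.87 CPM in ddm1 G1, and 2.56, 6.76 and 3.15 CPM in ddm1 G5, against the 2.46 to 4.01 CPM of WT. Both G1 libraries were below every WT library, and 1 of the 3 G5 libraries was above them. The log2 change against WT was -0.58 (SE 0.52) in G1 and 0.43 (SE 0.34) in G5, with Benjamini-Hochberg adjusted p-values of 0.467 and 0.510 (edgeR). Set directly against each other, G2 exceeded G1 by 1.61 on the log2 scale (SE 0.50; edgeR, Benjamini-Hochberg adjusted p = 0.157) and G5 exceeded G1 by 1.01 (SE 0.51; adjusted p = 0.512), so neither difference passed the adjusted limit.

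Combined mutants gave MORC7 a wide range. The ddm1 cdca7β-1 libraries (G6) held 7.11, 5.78 and 5.58 CPM and ddm1 cdca7α-1 libraries (G2) 5.88 and 4.73 CPM. Those of ddm1 cdca7α-2 (G1) held 2.62 and 2.22 CPM. The other G6 lines were not high. Libraries of ddm1 cdca7β-2 held 3.82, 4.30 and 3.39 CPM. The mean was 4.4 CPM in ddm1 cdca7αβ-1 and 3.56 CPM in ddm1 cdca7αβ-2, both within the range of DDM1 genotype means. The part of generation in the levels of these combined lines was not tested. The 9 ddm1 genotype means ran from 2.05 to 6.33 CPM, a wider range than the 2.83 to 4.52 CPM of the 7 DDM1 genotypes. Of the 22 ddm1 libraries, 8 were above every DDM1 library and none was below all of them. Markers moved in the ddm1 G2 libraries as well. Leaf markers summed to 38126 and 46757 CPM in ddm1 G2, against 7352 to 18767 CPM in WT, and dividing-cell markers to 12.3 and 16.5 CPM in ddm1 G2, against 0.670 to 2.30 CPM in WT, both without overlap. The defence markers PR1, PR2 and PR5 summed to 54.0 and 159.5 CPM in ddm1 G2, against 38.4 to 102 CPM in WT, with overlap. PR5 on its own rose (log2 change 1.61, SE 0.51; edgeR, Benjamini-Hochberg adjusted p = 0.0301). PR1 and PR2 did not, with log2 changes of -0.28 (SE 1.18) and -0.11 (SE 0.62). The part of these markers in the MORC7 value was not tested.

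MORC1, the pathogen-resistance ATPase, stood at 1.03 and 4.76 CPM in ddm1 G2 and at 4.48, 1.47 and 3.50 CPM in ddm1 G5, against 7.38, 3.16 and 5.44 CPM in WT. The low ends came from single libraries of 4 and 5 reads, and both groups overlapped WT. Log2 changes were -0.92 (SE 0.48) in G2 and -0.77 (SE 0.42) in G5, with Benjamini-Hochberg adjusted p-values of 0.221 and 0.293 (edgeR). In G1 MORC1 was at 6.66 and 4.22 CPM, with a log2 change of 0.03 (SE 0.46). One library decided the G2 value: without G2 replicate 3 the log2 change was -2.34 (edgeR, Benjamini-Hochberg adjusted p = 0.0193), and without G2 replicate 1 it was -0.17.

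MORC6, the shared partner of the MORC dimers, showed no clear difference. It measured 5.55 and 3.75 CPM in ddm1 G1, 3.09 and 4.76 CPM in ddm1 G2, and 2.56, 3.82 and 5.60 CPM in ddm1 G5, against 3.35, 3.44 and 6.02 CPM in WT. All 3 ddm1 groups overlapped WT. The log2 changes were 0.14 (SE 0.44) in G1, -0.12 (SE 0.43) in G2 and -0.10 (SE 0.38) in G5, errors too wide to show that the level was unchanged.

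MOM1 was the most deeply counted of the 5 genes. It measured 12.2 and 8.90 CPM in ddm1 G1, 6.69 and 11.1 CPM in ddm1 G2, and 8.97, 13.2 and 10.9 CPM in ddm1 G5, against 9.83, 11.5 and 13.8 CPM in WT. All 3 generations overlapped WT. The log2 changes were -0.14 (SE 0.33), -0.40 (SE 0.33) and -0.08 (SE 0.29), none of which passed. The share of loci called was 16.7% in ddm1 G1 against WT and 10.5% in ddm1 G5 against WT. In both comparisons none of the 5 genes was called, nor had any an unadjusted p below 0.05 (edgeR). Of 17943 loci, 5298 in G1 and 4057 in G5 had one.

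**Figure D2:**
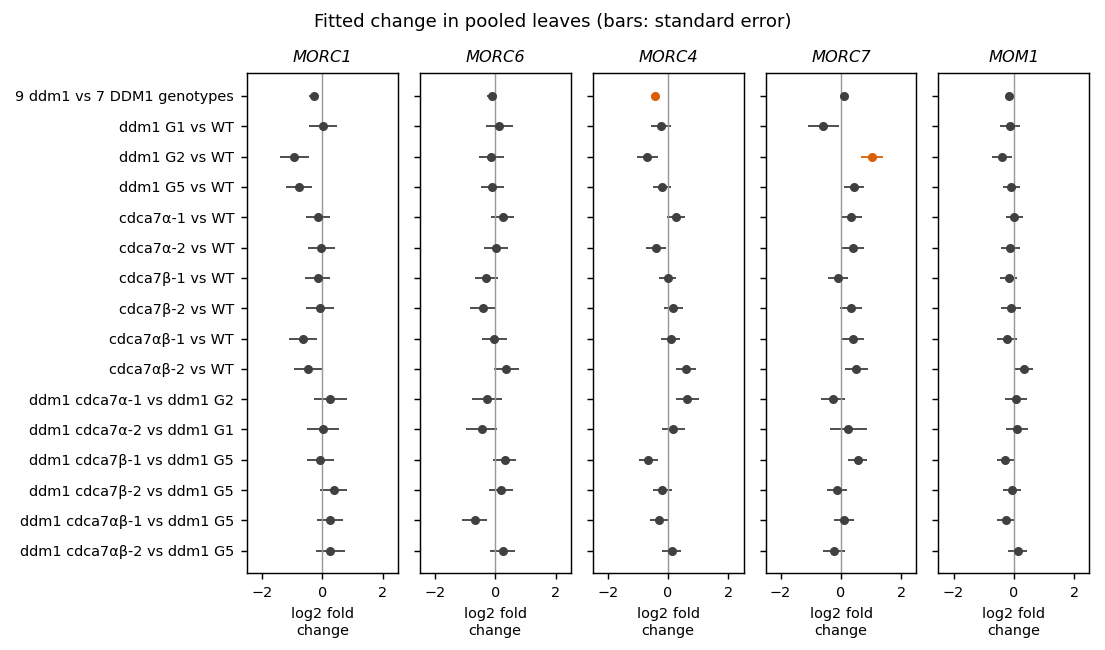
Fitted log2 fold change (dot) and SE (bar) of each gene in the 16 comparisons of pooled leaves, with orange for an adjusted p of 0.1 or less. Orange marks MORC4 in the contrast of all ddm1 genotypes, at -0.45, and MORC7 in ddm1 G2 against WT, at 1.03.

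No call on the 5 genes was made in mutants of CDCA7 with wild-type DDM1, where few loci were called at all. In the pooled set the share of loci called against WT was 1.40% in cdca7αβ-1 and 1.43% in cdca7αβ-2. For the single mutants it was 0.0390% with the promoter allele cdca7α-1, 1.95% with cdca7α-2, and 5.30% and 0.635% with the CDCA7β alleles cdca7β-1 and cdca7β-2. None of the 5 genes was called in any of these 6 comparisons, which share the WT libraries, and none had an unadjusted p below 0.05 (edgeR). With shares this low, 5 genes without a call do not differ from the background, and the fitted changes ran from -0.65 to 0.59.

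MORC4 had the lowest unadjusted p among these mutants, in cdca7αβ-2, and lay on opposite sides of WT in different lines. It stood at 13.8 and 14.1 CPM in cdca7αβ-2 and at 6.95 and 7.09 CPM in cdca7α-2, against 7.82, 9.47 and 10.6 CPM in WT. Neither mutant overlapped WT, yet cdca7αβ-1, the other double mutant, did, at 10.7 and 9.07 CPM. The log2 change was 0.59 (SE 0.32; edgeR, Benjamini-Hochberg adjusted p = 0.909) in cdca7αβ-2 and -0.40 (SE 0.32; adjusted p = 0.685) in cdca7α-2.

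Both double mutants had MORC1 below and MORC7 above the WT mean, and split in MOM1 and MORC6. MORC1 was at 3.46 and 3.37 CPM in cdca7αβ-1 and 4.60 and 3.29 CPM in cdca7αβ-2, within the WT range of 3.16 to 7.38 CPM, with log2 changes of -0.65 (SE 0.46) and -0.47 (SE 0.47). MORC7 had log2 changes of 0.38 (SE 0.37) in cdca7αβ-1 and 0.51 (SE 0.38) in cdca7αβ-2. MOM1 had -0.23 (SE 0.32) and 0.33 (SE 0.32), and MORC6 -0.03 (SE 0.42) and 0.37 (SE 0.42). Every one of these values was within 2 SE of no change. The signs of MORC1 and MORC7 were not particular to the double mutants. Over the 9 comparisons of a pooled mutant with the same WT libraries, MORC1 was higher in 1 and MORC7 in 7. In single plants of cdca7αβ-3 both had the opposite sign, with log2 changes of 0.20 (SE 0.27) for MORC1 and -1.30 (SE 0.76) for MORC7.

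Mutation of CDCA7 on top of ddm1, a promoter insertion with more CDCA7α reads in ddm1 cdca7α-1 and insertions or edits within the genes in the other 5 lines, was set against ddm1 of the nearest generation. The share of loci called was 0.00557% in ddm1 cdca7α-1, 0.00% in ddm1 cdca7α-2, 0.00557% in ddm1 cdca7β-1, 0.0111% in ddm1 cdca7β-2, 0.0167% in ddm1 cdca7αβ-1 and 0.0111% in ddm1 cdca7αβ-2. None of the 5 genes was called, and 1 of the 30 values had an unadjusted p below 0.05 (edgeR). That value was MORC4 in ddm1 cdca7β-1, at 5.27, 3.76 and 6.11 CPM, against 6.41, 8.81 and 8.75 CPM in ddm1 G5. These groups did not overlap, and the log2 change was -0.66 (SE 0.31; edgeR, Benjamini-Hochberg adjusted p = 1.00). The second allele, ddm1 cdca7β-2, at 5.73, 6.88 and 8.48 CPM, had a MORC4 log2 change of -0.19.

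MORC4 also gave the highest value of this family, in ddm1 cdca7α-1, where CDCA7α had 33 and 38 reads, against 12 and 18 reads in ddm1 G2. It measured 10.0 and 7.74 CPM in ddm1 cdca7α-1, against 4.89 and 6.67 CPM in ddm1 G2. The groups did not overlap, and the log2 change of 0.63 had a Benjamini-Hochberg adjusted p of 0.517 (edgeR). MORC6 gave the lowest value, a log2 change of -0.68 in ddm1 cdca7αβ-1, at 1.57, 1.54 and 4.13 CPM, against 2.56, 3.82 and 5.60 CPM in ddm1 G5, and these groups overlapped.

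**Figure D3:**
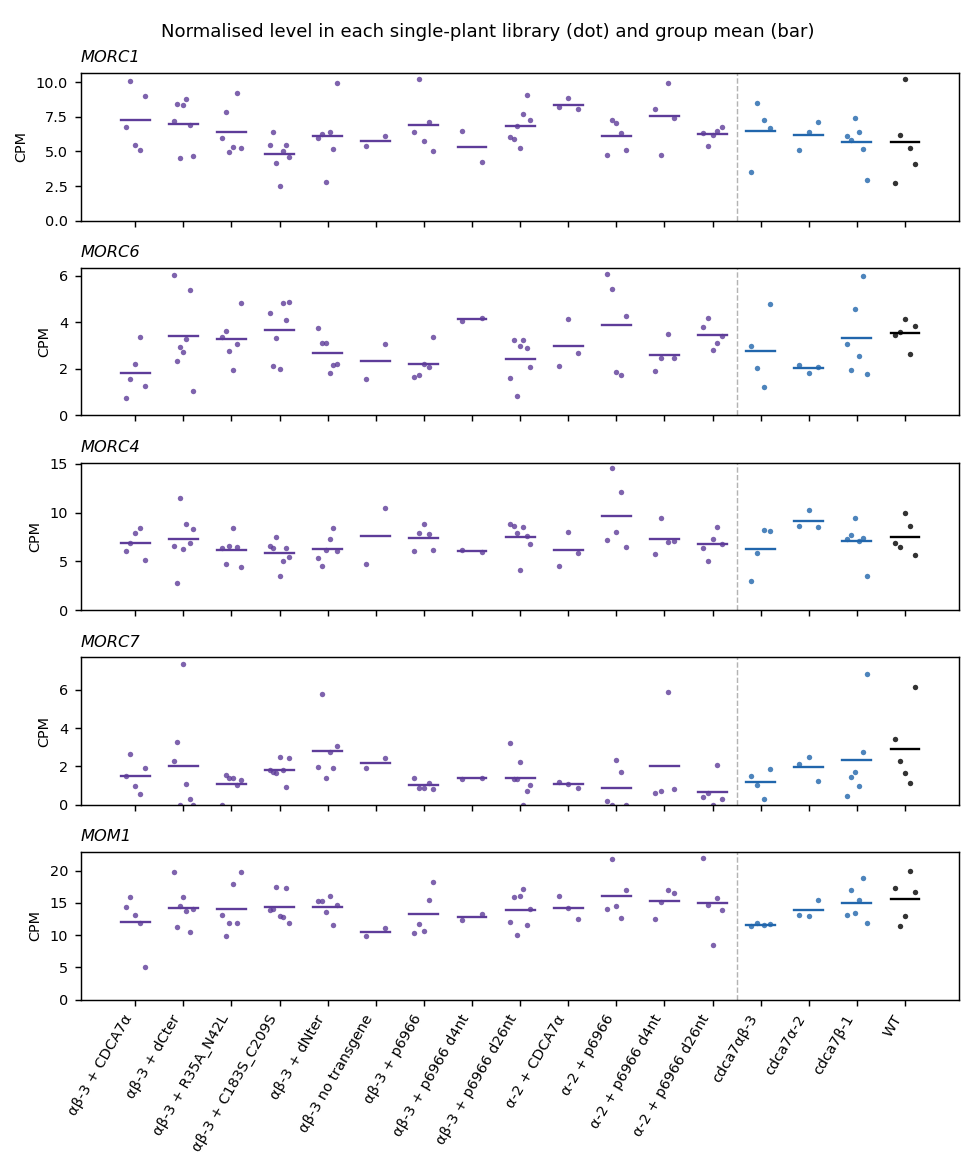
Level (CPM) of each gene in the 82 single-plant libraries, with dots for plants and bars for group means; transgenic groups and no_YFP plants are purple, untransformed mutants blue and WT black. MOM1 dots of cdca7αβ-3 lie close together at 11.5 to 11.8 CPM, and MORC7 has single plants far above their groups.

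Single plants of the third double mutant, cdca7αβ-3, gave MOM1 its only unadjusted p below 0.05. The gene measured 11.5, 11.8, 11.5 and 11.7 CPM in the 4 cdca7αβ-3 plants, against 17.3, 11.4, 13.0, 19.9 and 16.7 CPM in the 5 WT plants. All 4 mutant plants were below 4 of the 5 WT plants and above the remaining one, so the groups overlapped. The log2 change was -0.42 (SE 0.21; edgeR, Benjamini-Hochberg adjusted p = 0.967). Senescence markers (SAG12 and SAG13) summed to 3.50, 134, 46.5 and 372 CPM in the mutant plants, against 3.45, 1.63, 12.4, 3.00 and 88.2 CPM in WT, and SAG13 had a log2 change of 2.65 (SE 1.17; edgeR, Benjamini-Hochberg adjusted p = 0.827). The fifth WT plant also had the highest defence sum of its group, 316 CPM, and without it the MOM1 change was -0.39. The part of these markers in the MOM1 value was not tested.

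MORC1, MORC4 and MORC6 showed no clear difference in these plants, and MORC7 was low with a large error. MORC1 had a log2 change of 0.20 (SE 0.27), MORC4 of -0.22 (SE 0.26) and MORC6 of -0.34 (SE 0.37) in cdca7αβ-3 against WT. These errors are too wide to show that the levels were unchanged. MORC7 had 3, 4, 1 and 9 reads in cdca7αβ-3, against 9, 7, 6, 3 and 24 reads in WT. These overlap, and the log2 change of -1.30 had an SE of 0.76 (edgeR, Benjamini-Hochberg adjusted p = 1.00). Without the fifth WT plant, of 24 reads, it was -0.81. Every pair of same-numbered plants deviated together here (r of 0.136 to 0.607 over loci, 4 pairs). Of 20 comparisons with 3 or more such pairs, only this one had all of them above 0.1. The 2 such pairs of ddm1 G2 against WT had r = 0.229 and 0.457. MORC7 was lower in cdca7αβ-3 in 4 of 4 pairs, and with the replicate block its change was -1.34 (edgeR, Benjamini-Hochberg adjusted p = 1.00). The share of loci called was 1.42% in cdca7αβ-3, 0.280% in cdca7α-2 and 0.0228% in cdca7β-1, each against WT, and none of the 5 genes was called in any of the 3.

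MORC6 in cdca7α-2 had the lowest adjusted p among the single-plant mutants. It measured 2.15, 1.82 and 2.09 CPM in cdca7α-2, against 3.45, 3.59, 4.14, 2.62 and 3.85 CPM in WT. All 3 mutant plants were below all 5 WT plants, and the log2 change was -0.80 (SE 0.41; edgeR, Benjamini-Hochberg adjusted p = 0.535). Pooled leaves of the same allele had a MORC6 log2 change of 0.02 (SE 0.41), and the difference between the 2 sets was not tested. MORC4 differed in sign between the sets as well, with 0.28 (SE 0.27) in single cdca7α-2 plants and -0.40 (SE 0.32) in pooled cdca7α-2 leaves. In cdca7β-1 all 5 log2 changes were below 0 in both sets, between -0.32 and -0.02 in single plants and between -0.30 and -0.01 in pooled leaves, none past 1 SE.

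Transgenes in the cdca7αβ-3 background were set against the same 4 untransformed plants. In the paper, CDCA7α was brought into cdca7α-2 plants while endogenous CDCA7α/β was not yet fully lost. Transgenic and untransformed plants thus differ in history as well as in the construct, and these cannot be told apart here. The no_YFP plants are sisters of transgenic plants. The share of loci called was 0.942% with CDCA7α, 0.257% with dCter and 1.15% with p6966, 0.00571% with p6966_d26nt, and 0.00% each with R35A_N42L, C183S_C209S, dNter, p6966_d4nt and in the no_YFP plants. None of the 5 genes was called in the 9 comparisons. Tag reads ran from 23 to 114 per plant with p6966 and from 1 to 44 with CDCA7α, against 0 to 2 in untransformed cdca7αβ-3. Untransformed plants of all 4 genotypes had 0 to 5 tag reads. In 9 of 12 transgenic groups at least 1 plant was within that range, and in dNter every plant was (0 to 2 reads), so tag reads did not check the label of each plant.

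The fitted change of MOM1 against the untransformed plants was above 0 with 8 of the 9 constructs or controls, in values that share the 4 reference plants. It was largest with dNter, at 0.31 (SE 0.20), where plants had 0 to 2 tag reads. The sign therefore did not follow the tag reads. MOM1 had a median of 13.9 CPM with C183S_C209S (12.0 to 17.5, n = 7), against 11.5 to 11.8 CPM in the 4 cdca7αβ-3 plants, and these did not overlap. Nor did p6966_d4nt, at 12.4 and 13.3 CPM. The log2 change with C183S_C209S was 0.29 (SE 0.20), which did not pass (edgeR, Benjamini-Hochberg adjusted p = 0.737). With the intact CDCA7α the MOM1 change was 0.06, at 14.3, 15.9, 13.1, 11.8 and 5.12 CPM, and with p6966 it was 0.19. Both no_YFP plants, without a transgene, were below the untransformed plants, the lower at 9.82 CPM.

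MORC1 and MORC4 gave narrower ranges than MORC6 and MORC7. Over the 9 cdca7αβ-3 comparisons and 4 cdca7α-2 comparisons, MORC1 changes ran from -0.44 to 0.43 and MORC4 changes from -0.57 to 0.22. MORC6 changes ran from -0.54 to 0.95 and MORC7 changes from -1.32 to 1.22, with wider errors at their lower counts. The MORC7 extreme of 1.22 (SE 0.73) was with dNter, where 1 of 6 plants had 24 reads and the other 5 had 5 to 11.

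In the cdca7α-2 background no locus was called with CDCA7α, p6966, p6966_d4nt or p6966_d26nt (0.00% each, edgeR), and none of the 5 genes. MORC6 with p6966 had the only unadjusted p below 0.05, at 6.07, 5.45, 1.88, 1.73 and 4.26 CPM, against 2.15, 1.82 and 2.09 CPM in untransformed cdca7α-2. The groups overlapped, and the log2 change was 0.95 (SE 0.41; edgeR, Benjamini-Hochberg adjusted p = 0.709). The plant at 6.07 CPM had senescence markers at 686 CPM and leaf markers at 7299 CPM, against 1.88 to 70.4 CPM and 18863 to 38168 CPM in the other 4 p6966 plants. Without it the MORC6 change was 0.69 (edgeR, Benjamini-Hochberg adjusted p = 0.788), and the part of these markers was not tested. With p6966_d26nt all 5 plants, at 2.81 to 4.20 CPM of MORC6, were above the 3 untransformed plants, with a log2 change of 0.77 (SE 0.41; edgeR, Benjamini-Hochberg adjusted p = 1.00). The effect of p6966 on MORC6 was lower in cdca7αβ-3 than in cdca7α-2 by a log2 difference of -1.29 (SE 0.56), which did not pass either (edgeR, Benjamini-Hochberg adjusted p = 0.943).

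**Figure D4:**
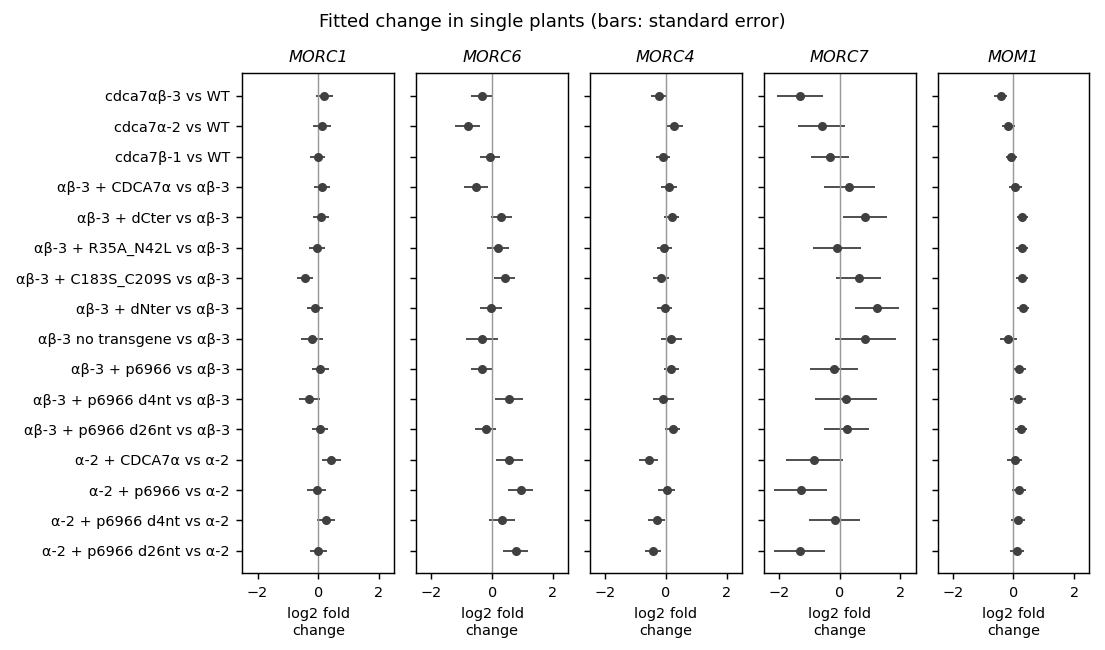
Fitted log2 fold change (dot) and SE (bar) of each gene in the 16 comparisons of single plants; no value passed the adjusted p limit of 0.1. MOM1 has the shortest bars and MORC7 the longest, and the MORC7 dots run from -1.32 to 1.22.

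Genes that work with the MORC proteins and MOM1 were counted in the same comparisons. Of the other MORC genes, MORC2 had a median of 6 reads in pooled leaves and was tested, while MORC3 and MORC5 had a median of 0 reads and did not pass the filter. With 5 MOM1 partners, 12 genes of RNA-directed DNA methylation tied to MORC and 12 other silencing factors, 26 of 32 listed genes were tested in pooled leaves. Against WT, 2 rose and 1 fell in ddm1 G1, 1 rose and 1 fell in ddm1 G2, and none was called in ddm1 G5, cdca7αβ-1 or cdca7αβ-2. Over all loci the shares called were 16.7% in G1, 14.6% in G2 and 10.5% in G5, so the 26 genes were not called more often than the rest. In the contrast of all ddm1 genotypes 1 rose, FAS2.

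FAS2, a subunit of the chromatin assembly factor CAF-1 that acts with DNA replication, rose in G1 and G2. It had 5 and 6 reads in ddm1 G1 and 4 and 14 reads in ddm1 G2, against 0, 1 and 2 reads in WT, with log2 changes of 2.95 (SE 0.94; edgeR, Benjamini-Hochberg adjusted p = 0.0308) and 3.17 (SE 0.90; adjusted p = 0.0145). The dividing-cell markers summed to 15.5 and 19.7 CPM in G1 and 12.3 and 16.5 CPM in G2, against 0.670 to 2.30 CPM in WT, and their part in this value was not tested.

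MAIL1, a nuclear protein needed for silencing and meristem maintenance, fell in G1. It measured 8.13 and 5.15 CPM in ddm1 G1, against 13.4, 22.1 and 13.2 CPM in WT, without overlap (log2 change -1.27, SE 0.32; edgeR, Benjamini-Hochberg adjusted p = 0.00617). IDN2, which binds RNA in RNA-directed DNA methylation, rose to 14.4 and 12.2 CPM in ddm1 G1, against 5.81, 4.02 and 7.16 CPM in WT (log2 change 1.23, SE 0.50; edgeR, Benjamini-Hochberg adjusted p = 0.0939).

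PHD1, a PHD-finger protein of the MOM1 complex, fell in G2. PHD1 had 6 and 3 reads, or 1.54 and 0.952 CPM, in ddm1 G2, against 9, 15 and 34 reads, or 2.01, 4.31 and 9.74 CPM, in WT. The WT libraries were spread widely, the groups did not overlap, and the log2 change was -2.03 (SE 0.62; edgeR, Benjamini-Hochberg adjusted p = 0.0246). The median over the 5 MOM1 partners was -0.75 in G1, -0.46 in G2 and -0.72 in G5, beside -0.03, -0.02 and -0.01 over all loci. No partner was called in G1 or G5. A negative median against the same WT libraries was not particular to ddm1. Among mutants with DDM1 it reached -0.63 (cdca7αβ-2), and only cdca7αβ-1 had a positive one, 0.37. The contrast of all ddm1 genotypes with all DDM1 genotypes gave -0.32.

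The loci whose pattern over the 39 pooled libraries was most like each gene were sought among 16140 nuclear loci, by the Pearson correlation of log2 CPM. For MORC7 they were AT1G69550, annotated as a disease resistance protein of the TIR-NBS-LRR class (r = 0.77), the receptor lectin kinase AT2G37710 (r = 0.72) and the kinase BSK6 (AT3G54030, r = 0.67). Over the 82 single-plant libraries, which the choice did not use, the same loci had r = 0.48, 0.50 and -0.25 with MORC7. The loci nearest to the other 4 genes had r between 0.57 and 0.70 in pooled leaves, and between -0.24 and 0.23 in single plants.

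For MORC4 the nearest were AT1G35190, an oxygenase (r = 0.67), AT3G45630, an RNA-binding protein (r = 0.66), and AtIPCS3 (AT2G29525, r = 0.65). TOP1ALPHA, a DNA topoisomerase (AT5G55300, r = 0.63), came first for MOM1, HPR3 (AT1G12550, r = 0.62) for MORC6, and AT1G72645, an uncharacterised protein (r = 0.70), for MORC1. All libraries of a set share its preparation, and the counts are low, so these are descriptions. Beside the summed defence markers, MORC7 had r = 0.25 over the 39 pooled libraries and r = 0.41 over the 82 single-plant libraries, while MORC4 had r = -0.41 and -0.24. A negative r in pooled leaves was not particular to MORC4. MORC1 had r = -0.30 and -0.12, MOM1 -0.30 and 0.03, and MORC6 -0.23 and 0.13. The pooled values mix ddm1 and DDM1 libraries, whose median defence sums were 198 and 102 CPM. Among the 5 genes, the widest relations in pooled leaves were r = -0.57 between MORC1 and MORC7 and r = 0.36 between MORC6 and MORC4, and in single plants MORC1 and MORC7 had r = -0.07.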

How the data were processed

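RNA 3′ ends were sequenced with molecular identifiers. The authors removed duplicate reads, aligned with STAR 2.7.11a and quantified sense-strand transcripts with Salmon 1.10.1 on TAIR10, per the labels and the study's methods. The deposited values are estimated counts per transcript, which need not be whole. Here they were summed per locus and rounded, and each set was fitted with edgeR 4.0.16 in R 4.3.3: TMM scaling, all libraries of a set together, 1 coefficient per genotype, glmQLFit and glmQLFTest, with Benjamini-Hochberg adjustment over all loci that passed the filter. Printed SEs are the larger of the quasi-likelihood and the Poisson SE, since edgeR bounds its p-values by a Poisson test. Counting intervals and floors cover counting error only. The deposited tables of normalised RPM values were not used, and 0 columns were without a sample. Correlations used log2 CPM with a prior count of 2, except those with defence markers, which used log2(CPM + 0.5). The pipeline was run on simulated counts, with known changes placed only in genes of at least 10 expected reads. That run does not cover MORC7 in single plants, which had a median of 4 reads.

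Named were the 5 genes, listed partner genes past the limits in a ddm1 or double-mutant comparison with WT, and the 3 loci most like each gene. The genes and lists were chosen with earlier results of these data known. Alternatives were DESeq2 1.42.0 size factors and Wald test, no filter, a fit per comparison without the other genotypes, no organelle transcripts, a replicate block, the largest transcript per locus, and leaving out single libraries. Gene annotations were those of RefSeq TAIR10.1, used for names and neighbours only.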

Additional observations from a re-analysis of the deposited data

Results flagged for a closer look

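In 13 groups of 4 to 7 plants and 5 genes, 65 sets of values, 1 plant stood far from the rest of its group in 4 cases by Dixon's ratio of gap to range. Chance flags about 1 in 20 groups. All 4 cases were MORC7, the gene with the fewest reads.

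The highest plant of p6966_d4nt in cdca7α-2 measured 5.85 CPM on 10 reads, against 0.644 to 0.824 CPM in the other 3. In the dNter group, 1 plant measured 5.76 CPM on 24 reads, against 1.41 to 3.04 CPM in the other 5. Untransformed cdca7β-1 had 1 plant at 6.80 CPM on 23 reads, against 0.471 to 2.73 CPM in the other 5. The R35A_N42L group had 1 plant at 0 CPM, whose 0 reads allow up to 1.12 CPM, against 1.02 to 1.56 CPM in the other 5. The defence markers summed to 35.1 CPM in the high p6966_d4nt plant, 2444 CPM in the dNter plant, 208 CPM in the cdca7β-1 plant and 34.0 CPM in the R35A_N42L plant, and their part in the MORC7 values was not tested.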

How the results depend on the processing

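Under 8 other settings and 82 single-library omissions, 504 counts of called genes were recomputed. No plant was left out of the largest single-plant groups. These were dCter, dNter, C183S_C209S, R35A_N42L and p6966_d26nt in cdca7αβ-3, and untransformed cdca7β-1. Of these, 445 were 0 as reported and stayed 0, which says nothing of stability, and 51 of the 59 others kept their value. The count of 1 called gene in ddm1 G2 against WT (MORC7) became 0 with the largest transcript per locus (log2 change 2.74), with no filter (1.03) and with only the compared groups fitted (1.03, where 174 loci were called, against 2618), and 0 to 1 when single libraries were left out. MORC7 itself lost its call in 4 of 5 omissions, since without ddm1 G2 replicate 3 the 1 called gene was MORC1 (-2.34) instead. The count of 1 gene at the adjusted p limit at any fold over all ddm1 genotypes (MORC4) became 0 with the largest transcript per locus, and 1 to 2 when single libraries were left out: without ddm1 G2 replicate 3, MORC1 joined at -0.44. Adjusted p-values of MORC4 there ran from 0.00102 to 0.00975 over 39 omissions and from 0.00307 to 0.309 over 7 other settings. Those of MORC7 in G2 ran from 0.0364 to 0.238 over 5 omissions and from 0.0456 to 0.330 over 8 other settings. The cause of these losses was not tested. Of 2251 single log2 changes, 165 changed sign, none of them called, with reported values of up to 0.58. With the replicate block no call changed (MORC7 in G2 1.07, MORC4 over all ddm1 genotypes -0.46). Same-numbered libraries had deviations correlated between -0.515 and 0.607, and in 1 of 20 comparisons with 3 or more such pairs were all above 0.1, so the numbers were taken as names only, except in that 1 comparison, cdca7αβ-3 against WT, where the block changed no call. A setting without the 4 pooled libraries with over 30% plastid reads was chosen after seeing the data and changed no call. Median counts of 4 to 44.5 reads per library limit what could be seen.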
